A study of Mus musculus with 18 samples.

Results

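The genes that add ubiquitin to histones H2A and H2B, or take it off, were examined in mouse embryonic stem cells (ESCs) and epiblast-like cells (EpiLCs) exposed to Δ9-tetrahydrocannabinol (Δ9-THC), the psychoactive compound of cannabis. The 10 genes were chosen by name, with earlier results of these data known, out of the 14411 genes listed in either cell type. On the H2A side they were the ligase genes Rnf2, Ring1 and Dzip3, the ligase partner genes Bmi1 and Pcgf6, and the deubiquitinase genes Bap1 and Mysm1. On the H2B side they were the ligase genes Rnf20 and Rnf40 and the conjugating enzyme gene Ube2a. All 10 were measured in both cell types. RNA-seq libraries were available for 4 groups of 3 libraries, labelled as biological replicates: ESCs with vehicle, ESCs with 100 nM Δ9-THC, EpiLCs with vehicle and EpiLCs with 100 nM Δ9-THC. ESCs were held in the naive state with LIF and inhibitors of MEK and GSK3, and EpiLCs, a model of the formative epiblast, were induced from them with activin A and bFGF, with the exposure carried through both stages. The vehicle was ethanol, and all cells came from a line that carries the Blimp1::mVenus and Stella::ECFP reporters, so the replicates are cultures of one line and not separate animals. Primordial germ cell-like cells, the next stage of the study, were not analysed here.

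In chromatin, a single ubiquitin on histone H2A is the mark of Polycomb repressive complex 1 (PRC1) and goes with silent genes, whereas a single ubiquitin on histone H2B follows transcribing RNA polymerase. RNF2 and RING1 are the alternative catalytic subunits of PRC1, and each pairs with a PCGF protein such as BMI1 or PCGF6 that sets the type of the complex. BAP1, as part of the Polycomb repressive deubiquitinase, and MYSM1 remove ubiquitin from H2A, while RNF20 and RNF40 act as a pair that takes ubiquitin from the conjugating enzyme UBE2A and places it on H2B.

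The deposited totals ran from 23427551 to 32096698 adjusted counts per library. Markers followed the labels: the summed level of 8 naive markers lay between 4286 and 4650 CPM (counts scaled to a common library total) in the ESC libraries and between 309 and 365 CPM in the EpiLC libraries, and that of the formative markers between 154 and 172 CPM in ESCs, where Fgf5 was not listed, and between 1741 and 2107 CPM in EpiLCs. Markers of other lineages were low, with 8 of 12 not listed in ESCs and 6 of 12 not listed in EpiLCs. Libraries with the same number deviated in opposite ways within a cell type. Across all genes, the deviation of a vehicle library from its group mean was almost the mirror image of that of the exposed library with the same number (Pearson's r across genes from -0.99 to -0.98 in both cell types), whereas vehicle and exposed libraries with different numbers had r from 0.22 to 0.70. The counts had been batch-adjusted before they were deposited, and the p-values and SEs that follow take the libraries of a group as independent samples. With the replicate number as a block in the fit, edgeR called 5 genes in ESCs, against 906 without it, and in EpiLCs 291 genes had an unadjusted p under 0.05, against 2069. Differences between exposed and vehicle libraries also followed base composition and, in EpiLCs, exonic length. The log2(fold-change) of all genes rose with exonic length in EpiLCs (Spearman's rho across genes 0.34), with a rho of 0.06 in ESCs. The log2(fold-change) of all genes fell with the GC content of their exons (Spearman's rho across genes -0.54 in ESCs and -0.31 in EpiLCs), with a median of 0.11 in ESCs and 0.09 in EpiLCs among genes with under 45% GC and of -0.07 and -0.06 among genes with over 50% GC.

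Of the 10 members, 7 had exons with under 45% GC: Dzip3 (37.7%), Mysm1 (39.6%), Rnf2 (40.0%), Bmi1 (42.1%), Ube2a (43.4%), Rnf20 (43.7%) and Pcgf6 (44.0%). Bap1 (54.4%), Rnf40 (56.0%) and Ring1 (57.8%) had over 50%. Dzip3 and Mysm1 had the lowest exonic GC content of the members, at percentiles 1.89 and 5.17 of all measured genes, and their exons were long, at 9081 and 8946 bases in all. The DNA ahead of their start sites was not AT-rich. The 250 bases upstream of the RefSeq start site (GRCm38.p6) of Rnf2 (chr1:151500992-151501241, minus strand), Dzip3 (chr16:48994143-48994392, minus strand) and Mysm1 (chr4:94979101-94979350, minus strand) are given because Rnf2 was the member called in ESCs and Dzip3 and Mysm1 had the highest fold changes in EpiLCs. They are written 5′ to 3′ with each CpG dinucleotide in capitals.
Rnf2: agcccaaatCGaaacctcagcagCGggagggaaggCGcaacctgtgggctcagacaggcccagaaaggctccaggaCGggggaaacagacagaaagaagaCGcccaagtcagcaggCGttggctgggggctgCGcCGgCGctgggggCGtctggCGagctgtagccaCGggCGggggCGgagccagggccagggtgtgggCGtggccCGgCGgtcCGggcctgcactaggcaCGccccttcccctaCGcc
Dzip3: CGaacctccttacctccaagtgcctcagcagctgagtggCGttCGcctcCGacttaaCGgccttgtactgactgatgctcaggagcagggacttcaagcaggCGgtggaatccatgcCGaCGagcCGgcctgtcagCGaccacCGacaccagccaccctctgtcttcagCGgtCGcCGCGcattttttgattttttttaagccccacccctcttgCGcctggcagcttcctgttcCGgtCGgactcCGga
Mysm1: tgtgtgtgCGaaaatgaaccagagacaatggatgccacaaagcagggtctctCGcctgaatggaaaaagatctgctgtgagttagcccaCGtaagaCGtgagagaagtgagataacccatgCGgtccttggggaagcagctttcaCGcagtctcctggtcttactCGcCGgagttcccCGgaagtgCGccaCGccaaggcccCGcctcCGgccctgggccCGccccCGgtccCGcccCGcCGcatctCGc
These windows held 70.4% GC and 20 CpG in Rnf2, 60% GC and 19 CpG in Dzip3, and 61.2% GC and 19 CpG in Mysm1, against medians of 52% and 6 CpG over 27025 mouse promoters. All 10 members had a window, the first listed where a gene had more than one. Bap1 had the most CpG, 43, and Rnf20 the fewest, 1. The window of Rnf20 (chr4:49638375-49638624, plus strand) lies inside the annotated gene, which starts at 49632006. The window of Ube2a (chrX:36874045-36874294, plus strand) also lies inside its annotated gene, which starts at 36873900. The CpG counts of Rnf20 and Ube2a, and the motif of Rnf20, therefore do not describe the DNA ahead of those starts. The windows of Bap1 and Dzip3 run in part into their annotated genes. A CCAAT box (CCAAT, either strand) lay in the window of Rnf40 alone among the members, against 34.5% of all promoters. The E-box CACGTG lay in those of Bap1 and Bmi1 (6.05% of all promoters), the ETS core CCGGAAG in that of Mysm1 (7.05%) and TATAAA in that of Rnf20 (13.0%). Of the 3 printed windows, that of Mysm1 alone held one of these motifs.

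PRC1 supplied the member called in ESCs. Rnf2 (ENSMUSG00000026484, chr1:151458004-151500955), which encodes the catalytic subunit RING1B, had 154, 155 and 149 CPM in the 3 vehicle ESC libraries and 174, 172 and 180 CPM in the 3 exposed ones. Every exposed library lay above every vehicle library. The mean rose 1.15-fold, from 153 ± 3.37 to 175 ± 4.38 CPM (SD, n = 3 each), a log2(fold-change) of 0.20 ± 0.03 (SE) with an adjusted p of 0.0301 (edgeR quasi-likelihood test, Benjamini-Hochberg over all genes). One of the 10 members thus passed in ESCs, against 6.91% of all 13104 genes tested. The call did not hold in every setting: leaving out any 1 of the 6 libraries gave adjusted p from 0.0721 to 0.134, the replicate number as a block gave 0.414, and with offsets for GC content and length the log2(fold-change) was 0.05 (adjusted p = 0.385). A share of 3.83% of its exonic bases overlaps Trmt1l.

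In EpiLCs the level of Rnf2 was lower and its spread wider. The vehicle libraries had 86.7, 99.7 and 75.8 CPM and the exposed ones 93.7, 79.1 and 105 CPM. The groups overlapped, and the log2(fold-change) was 0.09 ± 0.14 (adjusted p = 0.811). Leaving out replicate 3 of either group turned the sign. Ring1 (ENSMUSG00000024325, chr17:34020792-34024680), the paralogue of Rnf2, ran between 6.62 and 9.05 CPM in all 12 libraries, with log2(fold-change) of -0.16 ± 0.08 in ESCs (adjusted p = 0.237) and -0.04 ± 0.15 in EpiLCs (adjusted p = 0.913).

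Both PCGF members had smaller differences than Rnf2 in ESCs. Pcgf6 (ENSMUSG00000025050, chr19:47033617-47050906), the subunit of a non-canonical PRC1 that MGA brings to germ cell genes, had 104, 97.3 and 101 CPM in vehicle ESCs and 105, 112 and 109 CPM in exposed ESCs. The groups did not overlap, but the log2(fold-change) of 0.11 ± 0.04 did not pass (adjusted p = 0.120). Bmi1 (ENSMUSG00000026739, chr2:18677018-18686629), a subunit of canonical PRC1, had 20.6 to 22.7 CPM in vehicle ESCs and 22.7 to 25.2 CPM in exposed ESCs, just short of an overlap, and its log2(fold-change) of 0.11 ± 0.06 did not pass either (adjusted p = 0.268). In EpiLCs both overlapped between groups, at 0.13 ± 0.09 for Pcgf6 and 0.15 ± 0.17 for Bmi1.

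Dzip3 (ENSMUSG00000064061, chr16:48924232-48994165), which encodes an H2A ligase outside PRC1, had the highest log2(fold-change) of the members in EpiLCs. The vehicle EpiLC libraries had 37.4, 37.5 and 31.1 CPM and the exposed ones 45.8, 46.2 and 54.3 CPM. Every exposed library lay above every vehicle library. The means were 35.3 ± 3.67 and 48.8 ± 4.78 CPM, a ratio of 1.38 and a log2(fold-change) of 0.46 ± 0.11, which did not pass (adjusted p = 0.172). In ESCs the vehicle libraries had 56.8, 50.5 and 42.8 CPM and the exposed ones 49.1, 56.1 and 64.5 CPM. Here the groups overlapped, and the library labelled replicate 1 was the highest of the vehicle group and the lowest of the exposed group. The log2(fold-change) in ESCs was 0.18 ± 0.13 (adjusted p = 0.419).

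**Figure D1:**
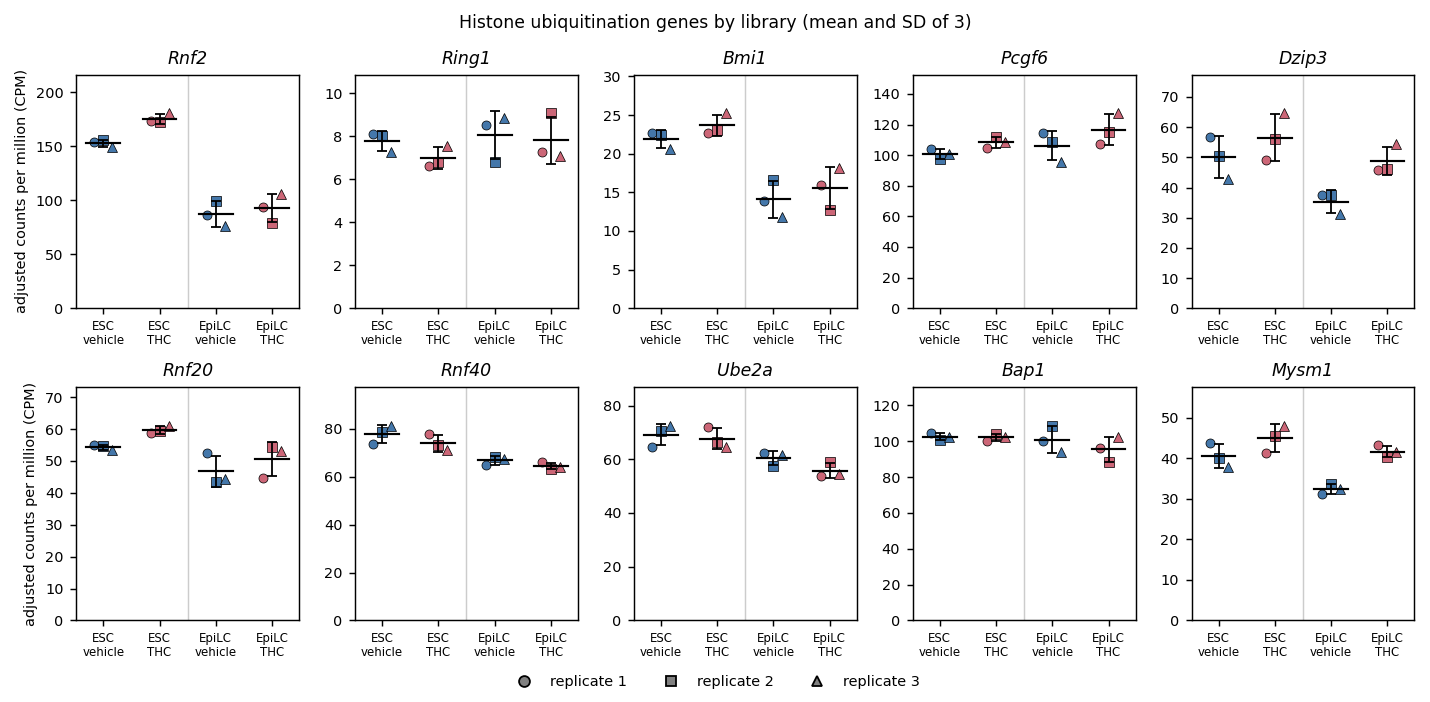
CPM of the 10 genes (y axis, from 0) in each of the 12 libraries, by cell type and exposure (x axis; blue, vehicle; red, Δ9-THC; marker shape, replicate number), with the mean and SD of 3. Exposed libraries all lay above vehicle libraries for Rnf2, Bmi1, Pcgf6 and Rnf20 in ESCs, where 16.7% of all genes did so. In EpiLCs they did for Dzip3 and Mysm1, against 11.2% of all genes.

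Mysm1 (ENSMUSG00000062627, chr4:94942040-94979100), an H2A deubiquitinase that also acts in blood stem cells, had the smallest SE relative to its difference among the members in EpiLCs. The vehicle libraries had 31.1, 33.6 and 32.5 CPM and the exposed ones 43.1, 40.3 and 41.6 CPM. The groups did not overlap. Means of 32.4 ± 1.25 and 41.7 ± 1.45 CPM gave a ratio of 1.29 and a log2(fold-change) of 0.36 ± 0.06, with an adjusted p of 0.144 in edgeR's test. DESeq2 gave an adjusted p of 0.0440 for Mysm1, its 1 call among the members against 0.518% of all genes. In ESCs the vehicle libraries had 43.8, 39.9 and 37.9 CPM and the exposed ones 41.2, 45.6 and 48.0 CPM. These groups overlapped, with a log2(fold-change) of 0.15 ± 0.08 (adjusted p = 0.248).

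Naive markers were also slightly higher on average in exposed EpiLCs. All 8 had a log2(fold-change) above 0 there, against 50.7% of all genes, and none passed the test. Their summed level was 309 to 338 CPM in vehicle EpiLCs and 333 to 365 CPM in exposed EpiLCs, with overlapping ranges. The 7 formative markers summed to 1741 to 2072 and 1775 to 2107 CPM. In ESCs, where Dzip3 and Mysm1 also had a log2(fold-change) above 0, 6 of the 8 naive markers lay below 0. The part of the naive markers in the differences of Dzip3 and Mysm1, which were both higher in vehicle ESCs than in vehicle EpiLCs, was not tested. In these bulk libraries, a change in the share of cells that express a gene and a change of its RNA per cell cannot be told apart.

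Bap1 (ENSMUSG00000021901, chr14:31251450-31259944) ran between 100 and 104 CPM in the 6 ESC libraries. Its log2(fold-change) was -0.0036 ± 0.03 in ESCs (adjusted p = 0.954) and -0.08 ± 0.08 in EpiLCs (adjusted p = 0.697). The groups overlapped in both cell types.

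Among the H2B genes, Rnf20 (ENSMUSG00000028309, chr4:49632006-49656887) lay just outside the threshold in ESCs. It had 55.0, 54.6 and 53.4 CPM in vehicle ESCs and 58.8, 59.4 and 61.1 CPM in exposed ESCs, so the groups did not overlap. The log2(fold-change) was 0.14 ± 0.03, with an adjusted p of 0.0504. Its partner Rnf40 (ENSMUSG00000030816, chr7:127588767-127604799) had the other sign, from 73.7 to 81.2 CPM with vehicle and 70.9 to 77.8 CPM with Δ9-THC in ESCs (log2(fold-change) -0.07 ± 0.05, adjusted p = 0.395). Of the exonic bases of Rnf40, 13.6% overlap other annotated genes. Ube2a (ENSMUSG00000016308, chrX:36873900-36884222), the conjugating enzyme, had log2(fold-change) of -0.03 ± 0.06 in ESCs and -0.12 ± 0.07 in EpiLCs (adjusted p = 0.756 and 0.452). In EpiLCs Rnf20 and Rnf40 overlapped between groups, at 0.12 ± 0.11 and -0.05 ± 0.05.

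Counted together, 0 of 10 members passed in EpiLCs, where edgeR called 0% of 13717 genes. At an unadjusted p under 0.05, 2 members were higher in exposed EpiLCs (8.28% of all genes were higher at that level, 15.1% in either direction), and 3 were higher in exposed ESCs, Rnf2, Rnf20 and Pcgf6 (14.9% of all genes higher, 28.7% in either direction). A stricter rule, an unadjusted p under 0.01 with a log2(fold-change) over 0.25 in size, took Dzip3 and Mysm1 in EpiLCs against 3.97% of all genes, and no member in ESCs against 4.94%. The study had applied this rule to epigenetic modifiers in the same libraries and had named Dzip3 and Mysm1 as increased in EpiLCs. Their passing was thus known before the members were chosen, and the counts of members in EpiLCs add no separate support. In EpiLCs this rule took Dzip3 alone with GC and length offsets, Mysm1 alone without exposed replicate 3, and 0 members with the replicate number as a block. Exposed libraries all lay above vehicle libraries for 4 members in ESCs and 2 in EpiLCs, where 16.7% and 11.2% of all genes did so. Among genes with under 45% GC, to which all of these members belong, that share was 37.4% in ESCs and 17.9% in EpiLCs. In the same class of genes, 22.6% had a log2(fold-change) at least that of Rnf2 in ESCs, whereas 3.60% had one at least that of Dzip3 and 7.62% one at least that of Mysm1 in EpiLCs. This class was not matched for exonic length, in which Dzip3 and Mysm1 stood at percentiles 87.3 and 86.8 of the genes measured in both cell types.

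**Figure D2:**
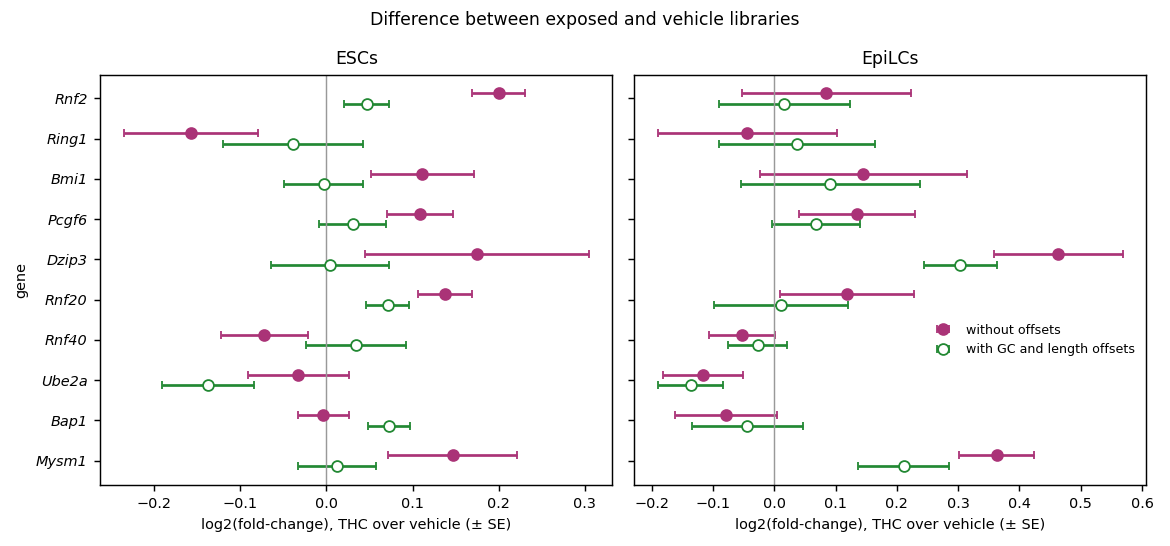
Log2(fold-change) of exposed over vehicle libraries (x axis, with SE) for each gene (y axis) in ESCs and EpiLCs, from the fit without offsets (filled) and with offsets for exonic GC content and length (open). With the offsets Rnf2 went from 0.20 to 0.05 in ESCs, and in EpiLCs Dzip3 went from 0.46 to 0.30 and Mysm1 from 0.36 to 0.21.

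The sign of the difference was the same in both cell types for all 10 members, and for 58.9% of the 12410 genes measured in both. The 6 that were higher in both (Dzip3, Mysm1, Rnf2, Bmi1, Rnf20 and Pcgf6) all had under 45% GC; Bap1, Ring1 and Rnf40, the 3 with over 50% GC, and Ube2a were lower in both. Of all genes, 59.2% of those with under 45% GC were higher in both cell types and 48.5% of those with over 50% GC were lower in both. When GC content and length entered the fit as offsets, 6 of the 10 kept one sign across cell types. The median log2(fold-change) of the members went from 0.11 to 0.02 in ESCs and from 0.10 to 0.03 in EpiLCs with the offsets, and the median of all genes lay between -0.02 and 0.0041 in these fits. Under the offsets Dzip3 and Mysm1 were at 0.0041 and 0.01 in ESCs, and at 0.30 ± 0.06 (adjusted p = 0.213) and 0.21 ± 0.07 (adjusted p = 0.313) in EpiLCs.

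**Figure D3:**
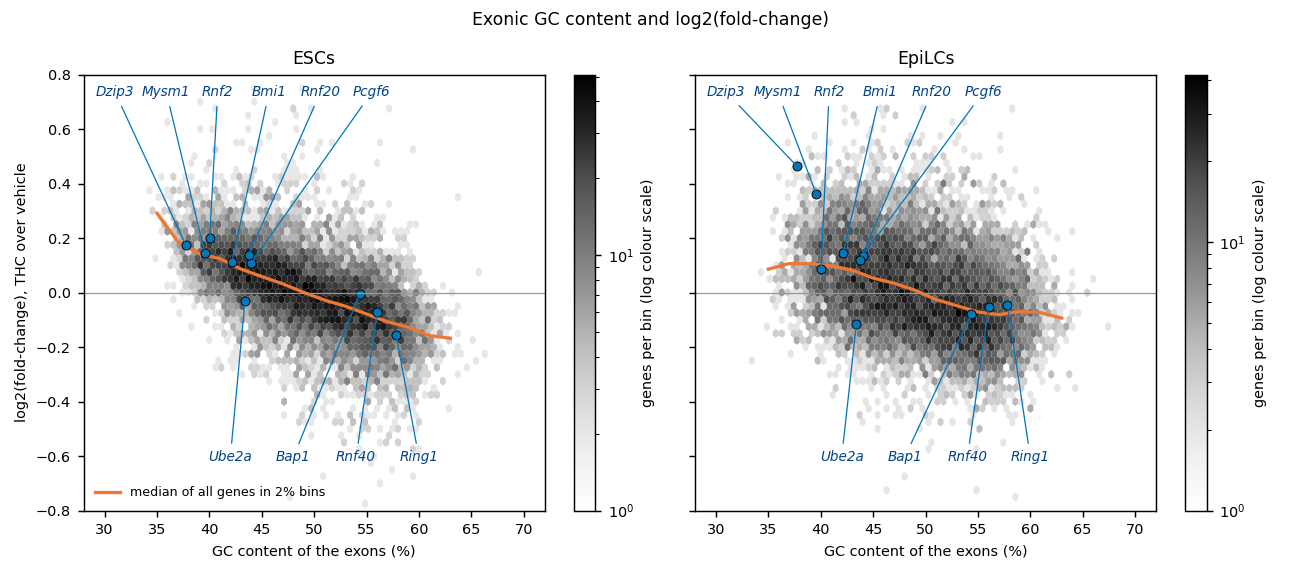
Log2(fold-change) of exposed over vehicle libraries (y axis) against exonic GC content in percent (x axis) for all genes (grey, number of genes per bin on a log colour scale) and the 10 members (blue), with the median of genes in bins of GC content (orange line; bins with at least 20 genes; y axis from -0.8 to 0.8). Most members lay near the line in ESCs, with Ube2a below it, and Dzip3 and Mysm1 lay well above it in EpiLCs.

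Whether the response differed between the cell types was tested directly, as the difference in EpiLCs minus that in ESCs. None of the 10 members passed, with 0.0322% of 12410 genes called by edgeR, and DESeq2 also called 0 members. Mysm1 alone had an unadjusted p under 0.05 (13.7% of all genes had one), with a difference of 0.23 ± 0.10 on the log2 scale (adjusted p = 0.343). The difference for Dzip3 was 0.30 ± 0.18 (adjusted p = 0.475) and that for Rnf2 was -0.10 ± 0.15 (adjusted p = 0.818).

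Between the cell types, levels are described without a test, because the 2 tables had been adjusted separately. Per kilobase of exon, vehicle ESCs had the order Rnf2 (37.0 ± 0.82 CPM per kb), Ube2a (30.5 ± 1.77), Bap1 (21.9 ± 0.40), Pcgf6 (20.01 ± 0.64), Rnf40 (13.8 ± 0.68), Rnf20 (7.45 ± 0.11), Dzip3 (5.51 ± 0.77), Bmi1 (5.51 ± 0.29), Mysm1 (4.53 ± 0.34) and Ring1 (2.40 ± 0.14). The ranges of neighbours in this order overlapped only between Dzip3 and Bmi1. With the length of the longest transcript in place of all exonic bases, Pcgf6 stood at 35.5 and passed Bap1 at 26.6, Rnf20 stood at 12.6 and Dzip3 at 8.57 CPM per kb, with Rnf2 still first at 47.7 and Ring1 last at 3.05. In vehicle EpiLCs Ube2a came first, at 26.6 ± 1.16 CPM per kb, followed by Bap1 (21.5 ± 1.59), Rnf2 (21.2 ± 2.91) and Pcgf6 (21.1 ± 1.91), which overlapped one another. Rnf40 (11.9 ± 0.32) and Rnf20 (6.41 ± 0.68) came next, then Dzip3 (3.89 ± 0.40), Mysm1 (3.62 ± 0.14) and Bmi1 (3.54 ± 0.59), with overlapping ranges, and Ring1 (2.48 ± 0.34) was again last. The first places depended on the length used, since per kilobase of the longest transcript Pcgf6 led at 37.5, before Ube2a at 34.9, Rnf2 at 27.3 and Bap1 at 26.2 CPM per kb.

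Rnf2 showed the greatest drop from ESCs to EpiLCs among the members, with vehicle EpiLCs at 0.573 of the ESC level in CPM. Bmi1 stood at 0.643, Dzip3 at 0.707, Mysm1 at 0.799, Rnf40 at 0.859, Rnf20 at 0.860 and Ube2a at 0.873. In these 7 genes every vehicle EpiLC library lay below every vehicle ESC library, and the ranges overlapped for Bap1, Ring1 and Pcgf6; 75.5% of all 12410 genes had vehicle libraries of the cell types that did not overlap. In exposed cells the corresponding ratio was 0.529 for Rnf2, 0.862 for Dzip3 and 0.927 for Mysm1.

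**Figure D4:**
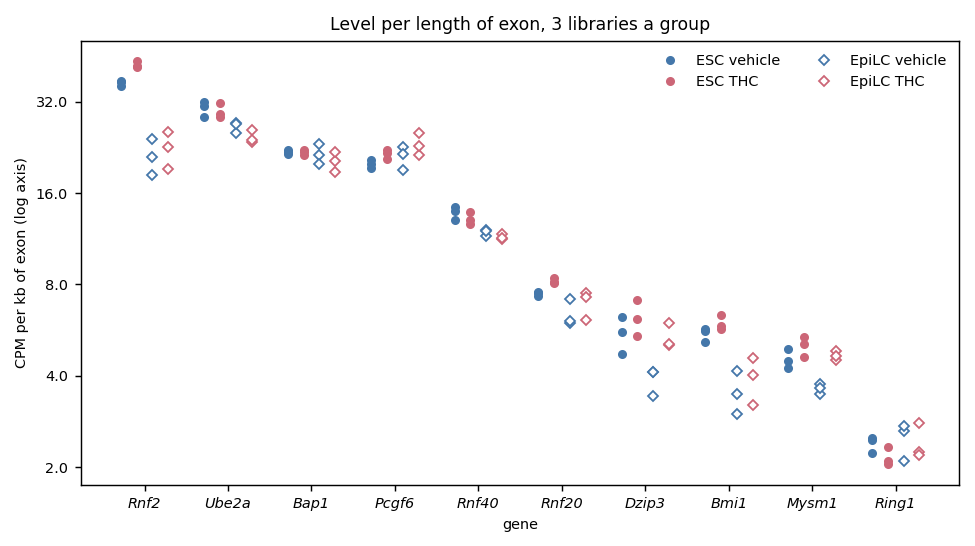
Level of each gene in CPM per kb of exon (y axis, log scale) in the 3 libraries of each group (x axis, genes in the order of vehicle ESCs; filled circles, ESCs; open diamonds, EpiLCs; blue, vehicle; red, Δ9-THC). On this scale Rnf2 led in ESCs and overlapped Bap1 and Pcgf6 in EpiLCs, and Ring1 was lowest in all 4 groups; by the longest transcript Pcgf6 stood above Rnf2 in EpiLCs.

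The other subunits and partners of these enzymes were followed in a wider list of 48 genes, all measured in both cell types. In ESCs, 3 rose and 2 fell, against 441 and 465 of all 13104 genes (6.91% in both directions together), and the other 43 did not pass. The genes that rose were Rnf168, an H2A ligase of the DNA damage response (log2(fold-change) 0.19 ± 0.04, adjusted p = 0.0380), Cdc73, a subunit of the PAF1 complex that H2B ubiquitination needs (0.24 ± 0.05, adjusted p = 0.0418), and Wac, an adaptor of RNF20 and RNF40 (0.16 ± 0.03, adjusted p = 0.0426). Those that fell were Phc2, a Polyhomeotic subunit of canonical PRC1 (-0.26 ± 0.05, adjusted p = 0.0399), and Usp21, an H2A deubiquitinase (-0.17 ± 0.03, adjusted p = 0.0370). The median log2(fold-change) of the 48 genes was -0.0098 in ESCs, against 0.0041 over all genes. None of these 5 calls was kept when any 1 ESC library was left out, with the replicate number as a block, with GC and length offsets, or in the fit of all 12 libraries. DESeq2 called Rnf168, Wac, Cdc73 and Phc2 as well as Pcgf5, but not Usp21, where it called 753 of all 13104 genes.

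The lists by role were as follows in ESCs, members included. Of 26 PRC1 subunit genes 1 rose and 1 fell, of 10 genes of the H2B ubiquitination machinery 2 rose, of 8 H2A deubiquitinases and partners 1 fell, of 8 H2B deubiquitinases and partners none passed, of 4 DNA damage ligases 1 rose, and of the 2 other H2A ligases none passed. Another 3 genes lay near the ends of the list without passing edgeR's test, and DESeq2 called Pcgf5 among them. Pcgf5, which encodes a subunit of non-canonical PRC1, had 12.4 ± 1.11 CPM with vehicle and 15.8 ± 1.36 with Δ9-THC (0.36 ± 0.09, adjusted p = 0.0606). Asxl3, a partner of BAP1, was at -0.30 ± 0.21 (adjusted p = 0.383), and Yaf2, a subunit of non-canonical PRC1, at -0.25 ± 0.06 (adjusted p = 0.0576).

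In EpiLCs none of the 48 passed in edgeR's test; 5 were higher and 2 lower at an unadjusted p under 0.05, where 8.28% of all genes were higher and 15.1% passed in either direction. DESeq2 called 1, Mga, and the edgeR fit of all 12 libraries called 4, Mga, Pcgf3, Paf1 and Cbx8, against 3.31% of 12410 genes; Pcgf3 is named here after its values were seen. The median log2(fold-change) was 0.07 for the 48 genes and 0.0030 for all genes. Mga, which encodes the DNA-binding scaffold of the PRC1 that holds PCGF6, had 223, 233 and 205 CPM in vehicle EpiLCs and 294, 282 and 318 CPM in exposed EpiLCs (log2(fold-change) 0.44 ± 0.08, adjusted p = 0.144). Cbx8, a chromodomain subunit of canonical PRC1, had 2.47, 2.45 and 3.01 CPM with vehicle and 1.56, 1.61 and 1.25 CPM with Δ9-THC. It had the lowest log2(fold-change) of the list, -0.84 ± 0.15 (adjusted p = 0.144), at a mean of 56.0 counts per library. Near the ends of the list also lay Usp51, a histone deubiquitinase (0.33 ± 0.13), Asxl2, a partner of BAP1 (0.30 ± 0.18), and Paf1, a subunit of the PAF1 complex (-0.26 ± 0.07), with adjusted p from 0.201 to 0.477.

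**Figure D5:**
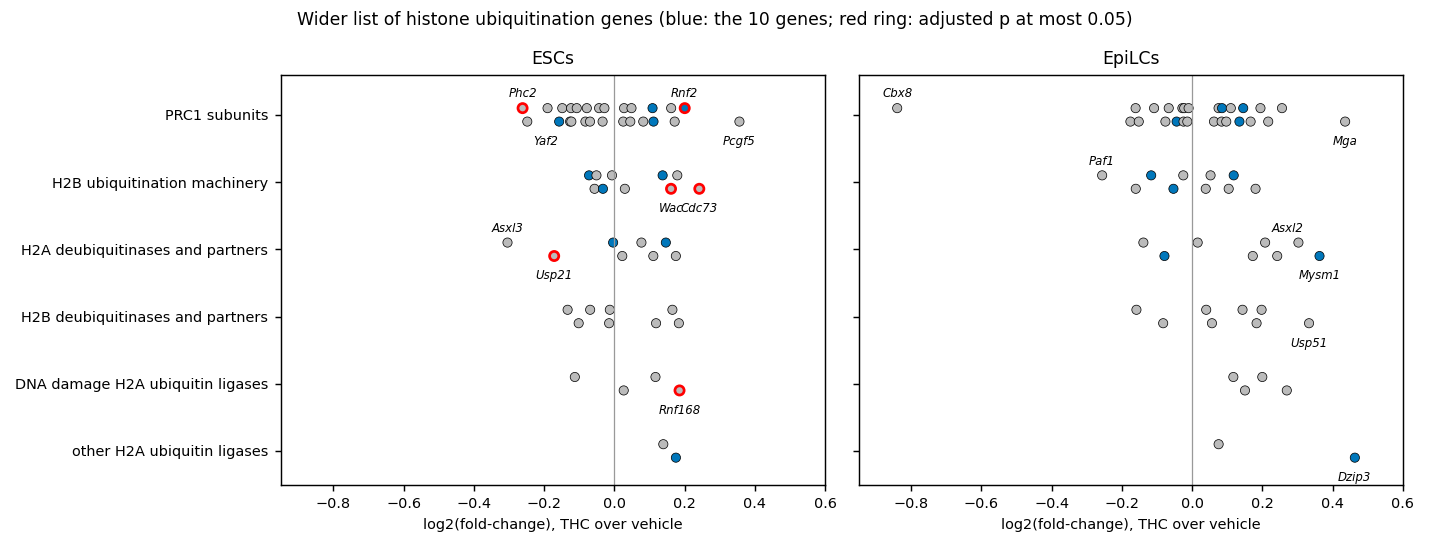
Log2(fold-change) of exposed over vehicle libraries (x axis) for the wider list with the 10 members in blue, by role (y axis; points are staggered within a role), in ESCs and EpiLCs; a red ring marks an adjusted p of at most 0.05. In all, 6 genes, Rnf2 among them, carry a ring in ESCs and none does in EpiLCs, where Dzip3 and Mga lie furthest to the right and Cbx8 furthest to the left.

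The genes with the profile most like that of Dzip3 over the 12 libraries, by root mean square difference in log2 CPM centred on the vehicle mean of each cell type, were Fcho2 (0.0669), Dmxl1 (0.0670) and Mga (0.0698), out of 12316 genes compared, whose median was 0.323. For Mysm1 they were Slk (0.0346), Arhgef12 (0.0354) and Lamp2 (0.0394), with a median of 0.255. Fcho2 had log2(fold-change) of 0.28 in ESCs and 0.52 in EpiLCs, and Slk 0.16 and 0.36. Dzip3 and Mysm1 differed from each other by 0.121, which placed Mysm1 at rank 72 for Dzip3 and Dzip3 at rank 445 for Mysm1. All these profiles share the 12 libraries and their mirrored deviations, so the likeness is a description.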

How the data were processed

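Poly(A) RNA-seq libraries of ESCs and EpiLCs, 3 per group, were prepared with 1 of 2 kits; which library had which kit was not given in the sources used here. The authors aligned reads with STAR, kept unique alignments, counted them per gene with HTSeq without strand, removed genes with 10 or fewer counts and applied ComBat-seq to each cell type; the deposited tables hold these adjusted whole-number counts (23427551 to 32096698 per library), and the batches are not named. Their notes name both mm10 and GRCm39, so exonic length and GC content were taken from GENCODE M21 on GRCm38 by gene identifier. Of 14411 genes, 14388 had a GC content.

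Groups came from the labels. Exposed and vehicle libraries were compared within each table with edgeR 4.0.16 (R 4.3.3; TMM, quasi-likelihood test, genes with over 10 counts in all, Benjamini-Hochberg, threshold 0.05). The SE is the log2(fold-change) divided by the root of F. The difference between cell types was an interaction over 12410 genes. CPM used TMM factors per table. Scripts were checked on simulated counts. Alternatives were DESeq2 1.42.0, RLE normalization, other filters, GC and length offsets (splines with 5 degrees of freedom), the replicate number as a block, a fit of all 12 libraries, the longest transcript as length, and leaving out each library. The 10 members and all lists were chosen with earlier results of these data known. Besides the members, genes of the wider list were named when called, or as the 3 highest and 3 lowest per cell type with a mean of at least 20 counts, and the 3 genes most like Dzip3 and Mysm1. One gene that this rule names is not reported here.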

Additional observations from a re-analysis of the deposited data

Results flagged for a closer look

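Yaf2, a subunit gene of non-canonical PRC1, had exposed libraries below all vehicle libraries in ESCs and above them in EpiLCs. It was picked out of the members and the wider list for this pattern. Of all genes, 15.9% had exposed libraries below all vehicle libraries in ESCs, and 11.2% had them above in EpiLCs. The share of all genes with both was not counted. It had 8.40, 8.86 and 9.08 CPM in vehicle ESCs and 7.71, 7.29 and 7.17 CPM in exposed ESCs, and 13.7, 13.8 and 13.9 CPM in vehicle EpiLCs and 14.5, 14.6 and 14.5 CPM in exposed EpiLCs. Neither difference passed edgeR's test, at a log2(fold-change) of -0.25 ± 0.06 in ESCs (adjusted p = 0.0576) and 0.08 ± 0.06 in EpiLCs (adjusted p = 0.604). The difference in EpiLCs minus that in ESCs was 0.34 ± 0.09 on the log2 scale (edgeR, adjusted p = 0.141), which did not pass either.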

How the results depend on the processing

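The call of Rnf2 in ESCs was kept with RLE normalization and with DESeq2. It was also kept with both other filters, which could hardly change it, since they left nearly the same genes. The fit without a filter had the same 13104 genes as the main fit, and that with at least 10 counts in every library had 13094. It was lost, leaving 0 members called in ESCs, with the replicate block (log2(fold-change) 0.20, adjusted p = 0.414), with GC and length offsets, with both together, in the fit of all 12 libraries (0.18, adjusted p = 0.408), and in each fit without 1 library (range 0 to 0 members). Leaving out a library took the calls over all genes in ESCs from 906 to between 0 and 1, the replicate block to 5 and the offsets to 2; the cause was not tested. In EpiLCs 1 member, Mysm1, was called by DESeq2 and by the fit of all 12 libraries (adjusted p = 0.0266, 411 of 12410 genes called), and 0 to 0 without 1 library. The labels tie the numbers to no shared culture or batch. The replicate block changed no other adjusted call of a member. In ESCs it took members at an unadjusted p under 0.05 from 3 to 1. In EpiLCs it left 0 members under the stricter rule (32 genes in all), as did the block with the offsets. At an unadjusted p under 0.05 in EpiLCs, the block left Dzip3 and Mysm1 (291 of 13717 genes in all). The block with the offsets left Dzip3 alone (205 genes in all). Signs turned for values near 0. With the offsets, Bap1 in ESCs was at 0.0728, Bmi1 in ESCs at -0.0033, Rnf40 in ESCs at 0.0342 and Ring1 in EpiLCs at 0.0366; with the block as well these were 0.0728, -0.0027, 0.0339 and 0.0358. Without 1 library, Bap1 in ESCs ran from -0.0170 to 0.0125, Ring1 in EpiLCs from -0.177 to 0.0283 and Rnf2 in EpiLCs from -0.0208 to 0.191. Dzip3 and Mysm1 in EpiLCs stayed between 0.376 and 0.507 and between 0.323 and 0.390 without 1 library. No member passed the test of the difference between cell types under any of the 5 alternatives tried for it.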
